A study of Mus musculus with 4 samples.

Results

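Ubiquitin-conjugating enzymes, or E2 enzymes, take activated ubiquitin from an E1 enzyme onto a catalytic cysteine and, together with an E3 ligase, pass it to a lysine of a target protein. With many E3 ligases, though not all, the E2 largely sets whether a single ubiquitin or a chain is built and through which lysine it is linked. A few E2 enzymes carry ubiquitin-like proteins such as NEDD8 or ISG15. In migrating cells, ubiquitination is known to act on adhesion proteins and receptors near the leading edge. The members were chosen as the probe sets whose single platform gene symbol starts with Ube2. This gave 33 genes of 18195 symbol entries, where all probe sets without a single symbol count together as 1 entry. By probe set it gave 81 of the 45101 on the array.

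The RNA came from NIH/3T3 cells, an immortalized mouse embryo fibroblast line, and was measured on 4 Affymetrix mouse expression arrays. The 2 groups were pseudopodia (2 arrays) and cell bodies (2 arrays) of the same kind of culture, and the comparison asks how RNAs are distributed between them. All cells had been starved of serum overnight, had spread for 2 h on a fibronectin-coated porous membrane of 24 mm diameter, and had received lysophosphatidic acid (LPA), a lipid that stimulates migration, from below at 150 ng/ml for 1 h. Cells extended protrusions through the pores, and after light fixation the protrusions were scraped off below the membrane and the cell bodies above it. Unstimulated cells were not analysed here. The samples are described as independent, but nothing in the labels tells whether they were separate cultures, and the p-values measure only the spread between these arrays.

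Each value is a MAS5 signal, the intensity that Affymetrix software summarises from the probes of a probe set, scaled so that every array has the same trimmed mean. A value is therefore a share of the signal in that fraction and not an amount of RNA. Neither the number of protrusions nor the RNA in each can be read from it. Differences are log2(signal + 16) in pseudopodia minus that in cell bodies, ± SE of the limma fit over all kept probe sets (n = 2 arrays per group throughout). A probe set was kept when its mean was at or above the median of all probe sets, which held for 66 of the 81 members, from 30 of the 33 genes. It passed the test when its adjusted p was under 0.05 over all 22519 kept probe sets. The fit has 2 residual degrees of freedom beside 5.563 that limma borrows from all kept probe sets. Its p-values therefore lean on a spread shared across probe sets as well as on each probe set's own. Arrays with the same replicate number shared a scan day and an experiment code, and the difference within each such pair is given as the replicate 1 or replicate 2 pair. The main test does not use this pairing. The number of arrays limits the precision, and an exact permutation of 2 against 2 arrays could not give a p below 0.333.

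The median signal was 31.0 and 33.3 on the pseudopodia arrays and 29.8 and 33.2 on the cell body arrays. Of 13 fibroblast markers with a probe set, 12 were kept, among them the collagens Col1a1, Col1a2 and Col3a1, and Thy1, a surface glycoprotein of many fibroblasts, was not kept. Of the markers of other cells, 4 of 10 epithelial, 3 of 8 blood cell and 2 of 9 adipocyte and muscle genes were kept. Kept were Epcam, Cdh1, Krt8 and Krt14 of the epithelial genes, Cd68, Lyz2 and Csf1r of the blood cell genes, and Acta1 and Des. Krt14 was bright on its brightest kept probe set, with 1813.1 and 1866.8 in pseudopodia against 2198.7 and 1769.6 in cell bodies. This probe set and the only kept one of Epcam end in _x_at, and such probe sets may cross-hybridize. Whether their signals came from Krt14 and Epcam RNA was not tested. Among the markers of other cells not kept were Krt18, Krt19, Ptprc, Adipoq and Myod1. By brightest probe set, 0 of these kept markers passed in limma, and 4 of the fibroblast markers and 0 of the others had an unadjusted p under 0.05. By probe set, 3 of 27 of the fibroblast markers passed as lower in pseudopodia, where 3.32% of all kept probe sets did so. They were 1 each of Col1a2, Fn1 and Pdgfrb. With the replicate number as a block, 3 fibroblast genes passed as lower, where 9.63% of all genes did so. That fit called 1 blood cell gene, Csf1r, higher, beside 7.62% of all genes. The ratio of 3' to 5' signal of the beta-actin control, a sign of RNA integrity, was 1.77 and 3.41 in pseudopodia against 1.55 and 1.89 in cell bodies. It was thus 1.14 times as high in pseudopodia in replicate 1 and 1.81 times in replicate 2, while the same ratio of the Gapdh control was 1.05 and 1.06 times as high. The part of RNA integrity in the results below was not tested.

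Few probe sets of E2 enzymes passed the test between pseudopodia and cell bodies. Of the 66 kept members, 1 passed as higher in pseudopodia, a probe set of Ube2e1, and 2 as lower, both of Ube2b, while 15 had an unadjusted p under 0.05 (22.7%, beside 22.0% of all kept probe sets). Over all kept probe sets 1.08% passed as higher and 3.32% as lower, so the members' counts lie near that background. The median member stood at 0.11, with 38 of 66 values positive, beside a median of -0.03 and 47.7% positive over all kept probe sets. Scaling the arrays on their hybridization controls in place of the trimmed mean moved both medians down, to -0.21 for the members and -0.32 for all kept probe sets, so the sign of the members' median depends on the scaling. That scaling left 24 of the 66 values positive, and quantile normalization gave 45, so the signs counted below are those of the deposited scaling. The median member was 0.23 in the replicate 1 pair and 0.03 in the replicate 2 pair. The pseudopodia and cell body arrays did not overlap in 23 members on the higher side and 10 on the lower side, where 24.8% and 28.2% of all kept probe sets did so. With each gene taken by its brightest kept probe set, 0 of 30 genes passed in limma when adjusted over genes (4 had an unadjusted p under 0.05, or 13.3% beside 21.0% of all genes), where 0.876% of all 10962 genes passed as higher and 1.64% as lower.

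**Figure D1:**
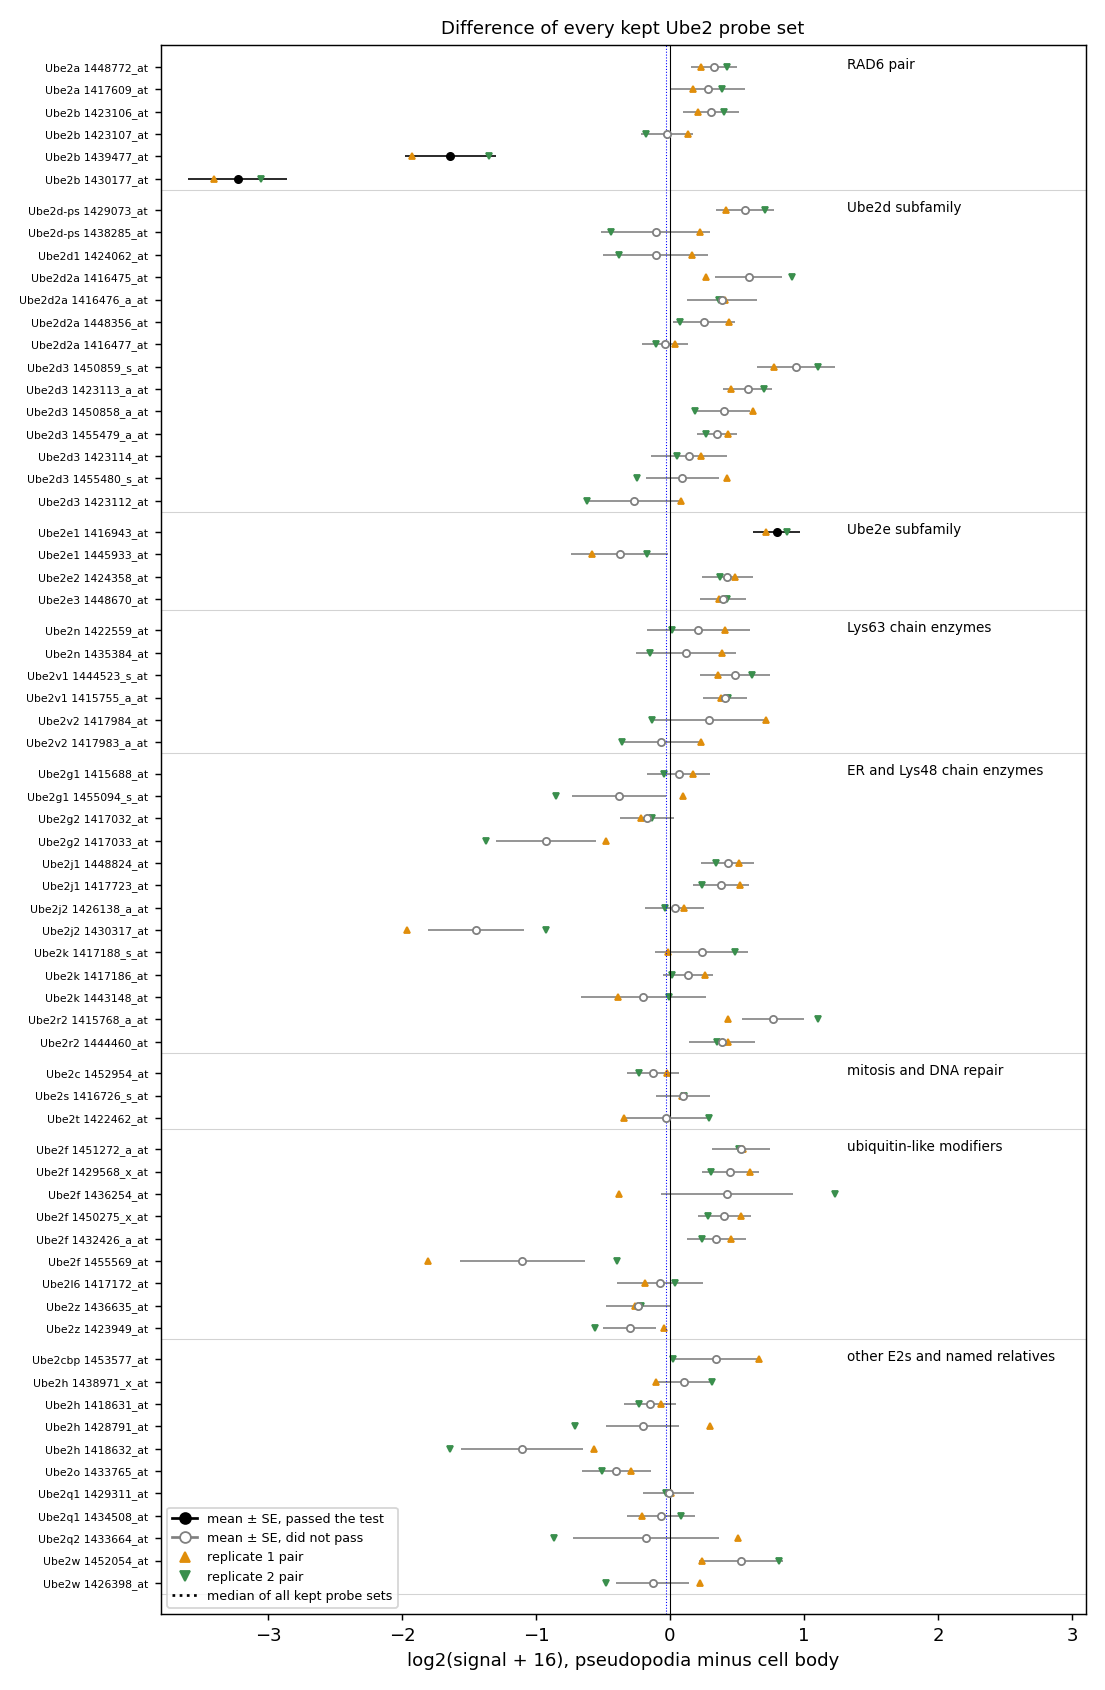
Difference of each of the 66 kept Ube2 probe sets, as log2(signal + 16) in pseudopodia minus cell bodies, grouped by role. Circles and bars are the mean ± SE of the limma fit (filled where the test was passed), triangles the 2 replicate pairs, and the dotted line the median of all kept probe sets at -0.03. Most members lie within 1 log2 unit of 0, with both Ube2b probe sets that passed at -3.23 and -1.64 and the Ube2e1 probe set at 0.79.

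Counts changed when the replicate number, which marks the shared scan day and experiment code, entered as a block. That fit called 5 members higher and 4 lower, against 6.84% higher and 11.3% lower over all kept probe sets. It leaves 1 residual degree of freedom, so its p-values lean still more on the spread that limma estimates across all probe sets. By brightest probe set it called 3 of the 30 genes higher (Ube2e1, Ube2r2 and Ube2v1) and 0 lower, against 7.62% and 9.63% of all genes. A rule of size chosen after seeing the data asked for a 1.5-fold difference between every pseudopodia and every cell body array. It was met by 1 member on the higher side and 3 on the lower side, and by 2.79% and 7.86% of all kept probe sets. Without cell body replicate 1, and likewise without cell body replicate 2, limma called 0 of all kept probe sets, and all 3 member calls ended.

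Ube2a and Ube2b encode the mammalian RAD6 proteins, near-identical E2 enzymes that ubiquitinate the replication clamp PCNA with RAD18 and histone H2B with RNF20 and RNF40. Of the 4 probe sets of Ube2b, 2 passed as lower in pseudopodia and 2 did not pass. The Ube2b probe set 1430177_at had signals of 5.9 and 1.9 in pseudopodia against 215.3 and 132.5 in cell bodies. The difference was -3.23 ± 0.37 (adjusted p = 0.0178). The probe set passed the filter through its cell body signals. Both pseudopodia signals lay below the median of their arrays, so the size of the difference depends on the pseudocount. With 1 in place of 16 it was -5.25 and with 64 it was -1.79, both past the threshold (adjusted p = 0.0269 and 0.0126), and without the variance trend its adjusted p was 0.061. The replicate pairs gave -3.40 and -3.05.

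The second Ube2b probe set, 1439477_at, had signals of 297.2 and 221.4 in pseudopodia against 1172.6 and 590.5 in cell bodies. All pseudopodia values lay below all cell body values, and the difference was -1.64 ± 0.34 (adjusted p = 0.0437), with -1.92 and -1.35 in the replicate pairs. Without cell body replicate 1, the highest of the 4 arrays, the difference was -1.15 (adjusted p = 0.315), and without cell body replicate 2 it was -2.12 (adjusted p = 0.198). The call also ended with a pseudocount of 1, without the filter, after median centring, after quantile normalization and without the variance trend, with adjusted p between 0.0531 and 0.112.

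The 2 other Ube2b probe sets did not pass. The brightest, 1423107_at, had signals of 1741.7 and 1396.5 in pseudopodia against 1588.0 and 1581.7 in cell bodies, and the groups overlapped (-0.023 ± 0.19, adjusted p = 0.962). The fourth, 1423106_at, had 539.5 and 575.4 in pseudopodia against 463.6 and 431.4 in cell bodies (0.31 ± 0.21, adjusted p = 0.431). Within the gene, 1423107_at stood 3.20 ± 0.40 above 1430177_at and 1.62 ± 0.41 above 1439477_at. These gaps were tested in a second limma fit over 8390 pairs, each the brightest kept probe set of a gene minus another kept probe set of it. No pair of any gene passed there at an adjusted p under 0.05 (0 of 8390, 993 with an unadjusted p under 0.05), and the gap to 1430177_at had an adjusted p of 0.0694 and the gap to 1439477_at one of 0.193. The gap to 1430177_at rests on pseudopodia signals this dim, and its size depends on the pseudocount. It passed with a pseudocount of 64 (gap 1.77, adjusted p = 0.0433), without the variance trend (adjusted p = 0.046) and with probe sets for 1 transcript only (adjusted p = 0.0375), and over all its alternatives the adjusted p ran from 0.0375 to 0.493.

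Ube2a, the paralogue, had positive values on both of its probe sets, and neither passed. Its brighter probe set, 1448772_at, had signals of 2853.8 and 3048.5 in pseudopodia against 2426.8 and 2267.0 in cell bodies, with no overlap (0.33 ± 0.17, adjusted p = 0.304). Its other probe set, 1417609_at, had 553.7 and 419.0 in pseudopodia against 488.8 and 316.6 in cell bodies, and the groups overlapped (0.28 ± 0.28, adjusted p = 0.606).

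**Figure D2:**
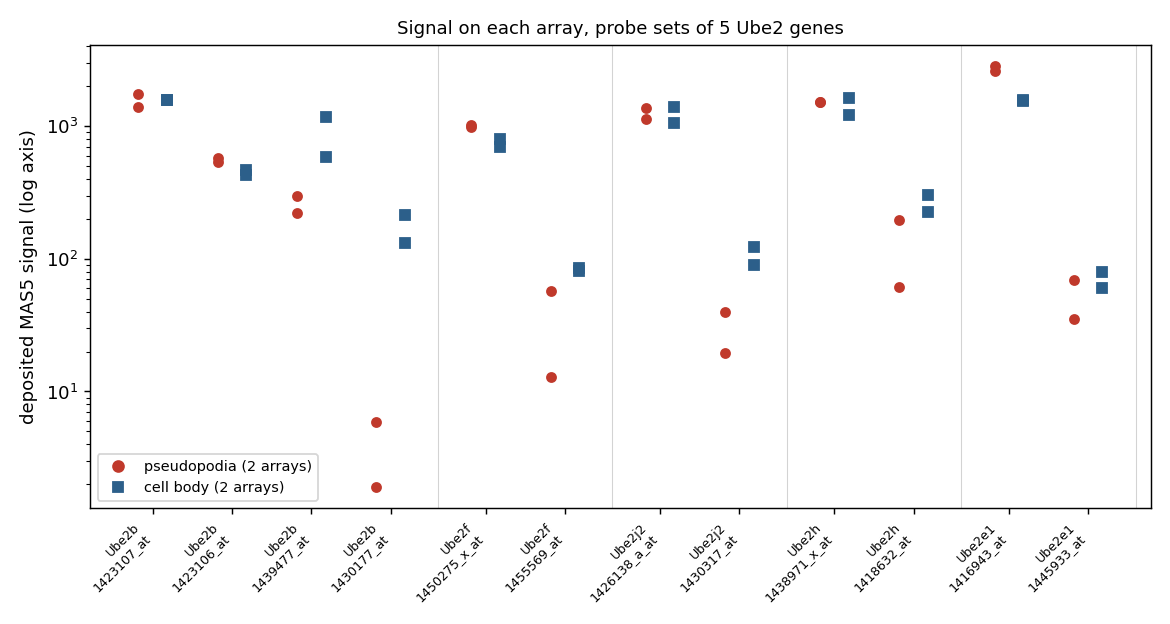
Deposited MAS5 signal on each array (log axis) for all 4 kept probe sets of Ube2b, both of Ube2e1 and Ube2j2, and the brightest and lowest-standing probe sets of Ube2f and Ube2h, with pseudopodia as circles and cell bodies as squares (2 arrays each). The signals of Ube2b 1430177_at are 5.9 and 1.9 in pseudopodia against 215.3 and 132.5 in cell bodies, while those of Ube2b 1423107_at overlap between the groups.

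The Ube2e subfamily holds E2 enzymes with an N-terminal extension ahead of the catalytic core. Ube2e1 was the only member gene with a probe set that passed as higher in pseudopodia. Probe set 1416943_at had signals of 2601.3 and 2858.2 in pseudopodia against 1578.7 and 1551.8 in cell bodies. Both pseudopodia arrays were above both cell body arrays, and the difference was 0.79 ± 0.17, or 1.73-fold (adjusted p = 0.0494), with 0.71 and 0.87 in the replicate pairs. The call was close to the threshold. It ended with a pseudocount of 1, without the filter, with a filter at the 75th percentile, after median centring, after quantile normalization and without the variance trend, with adjusted p between 0.0509 and 0.14, and scaling on the hybridization controls gave 0.46 (adjusted p = 0.258). Adjusted over the 10962 genes, the same probe set had an adjusted p of 0.0571.

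A dim probe set of Ube2e1, 1445933_at, had signals of 35.2 and 69.3 in pseudopodia against 60.6 and 80.1 in cell bodies, and the groups overlapped (-0.38 ± 0.36, adjusted p = 0.595). The gap between both Ube2e1 probe sets was 1.17 ± 0.41 (adjusted p = 0.320). Ube2e2 had 1212.4 and 1140.8 in pseudopodia against 861.4 and 878.6 in cell bodies (0.43 ± 0.19, adjusted p = 0.239), and Ube2e3 had 3276.9 and 3778.7 in pseudopodia against 2541.0 and 2809.3 in cell bodies (0.40 ± 0.17, adjusted p = 0.237). In both genes each pseudopodia array was above each cell body array, yet neither passed the test.

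The Ube2d subfamily, known from the human proteins as UbcH5, works with a wide range of E3 ligases and often places the first ubiquitin. Of its 14 kept probe sets 0 passed in limma (5 had an unadjusted p under 0.05), and 10 had positive values, with a median of 0.30 (0.41 in the replicate 1 pair and 0.13 in the replicate 2 pair). Ube2d3 had 7 kept probe sets, from -0.27 to 0.94. The brightest, 1455479_a_at, had signals of 8616.3 and 7824.8 in pseudopodia against 6374.6 and 6491.1 in cell bodies (0.35 ± 0.15, adjusted p = 0.216). Probe set 1423113_a_at had 3907.3 and 4932.6 in pseudopodia against 2845.4 and 3027.3 in cell bodies (0.58 ± 0.18, adjusted p = 0.116, and 0.0105 with the block). The groups did not overlap on either of these Ube2d3 probe sets.

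The highest value of any kept member was that of Ube2d3 1450859_s_at, a dimmer probe set whose suffix marks probes shared between genes or transcripts. Its signals were 197.2 and 164.2 in pseudopodia against 108.5 and 67.8 in cell bodies (0.94 ± 0.29, adjusted p = 0.112, and 0.0201 with the block). Ube2d3 1450858_a_at had 2149.2 and 1723.6 in pseudopodia against 1395.4 and 1516.5 in cell bodies (0.40 ± 0.20, adjusted p = 0.284). The other Ube2d3 probe sets overlapped between the groups. Ube2d3 1455480_s_at had 2562.6 and 1461.7 in pseudopodia against 1903.3 and 1732.4 in cell bodies (0.092 ± 0.27, adjusted p = 0.883), with the highest and the lowest of its 4 values both in pseudopodia. Ube2d3 1423114_at had 194.6 and 130.1 in pseudopodia against 163.3 and 124.9 in cell bodies (0.14 ± 0.29, adjusted p = 0.818). Ube2d3 1423112_at, the dimmest, had 56.1 and 53.9 in pseudopodia against 52.0 and 91.5 in cell bodies (-0.27 ± 0.34, adjusted p = 0.696). No gap between Ube2d3 probe sets passed, the adjusted p lying between 0.577 and 0.962.

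Ube2d2a, a close paralogue of Ube2d3, had 4 kept probe sets between -0.037 and 0.59. Probe set 1416475_at had 383.4 and 539.7 in pseudopodia against 316.2 and 280.3 in cell bodies (0.59 ± 0.25, adjusted p = 0.220), with 0.27 and 0.91 in the replicate pairs. The brightest, 1416476_a_at, had 2158.1 and 3106.4 in pseudopodia against 1617.3 and 2411.6 in cell bodies, and here replicate 2 was above replicate 1 in both fractions, so the groups overlapped (0.39 ± 0.26, adjusted p = 0.431). Ube2d2a 1416477_at had 1994.5 and 1984.6 in pseudopodia against 1948.0 and 2139.6 in cell bodies (-0.037 ± 0.17, adjusted p = 0.929), 4 nearly equal values. Ube2d2a 1448356_at had 677.9 and 497.1 in pseudopodia against 495.9 and 472.0 in cell bodies (0.26 ± 0.23, adjusted p = 0.570).

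Ube2d1 was measured by 1 probe set, with signals of 652.6 and 286.4 in pseudopodia against 579.3 and 377.3 in cell bodies. Its groups overlapped, and the difference was -0.11 ± 0.39 (adjusted p = 0.907). Ube2d-ps, listed in the RefSeq gene table as a long noncoding RNA, had 435.0 and 481.8 in pseudopodia against 322.4 and 289.0 in cell bodies on probe set 1429073_at (0.56 ± 0.22, adjusted p = 0.186). Its dim probe set, 1438285_at, had 47.6 and 21.5 in pseudopodia against 38.4 and 34.9 in cell bodies and overlapped (-0.11 ± 0.40, adjusted p = 0.909). Members of this subfamily are alike in sequence, so signal of one gene on a probe set of another was not told apart here.

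Ube2n, known as Ubc13, builds ubiquitin chains linked through lysine 63 together with Ube2v1 or Ube2v2, E2 variants that lack the catalytic cysteine. None of their 6 kept probe sets passed (limma; 1 had an unadjusted p under 0.05). Ube2n 1422559_at had signals of 2171.8 and 994.9 in pseudopodia against 1631.0 and 987.0 in cell bodies. Replicate 1 was above replicate 2 in both fractions, and the groups overlapped (0.21 ± 0.39, adjusted p = 0.798, with 0.41 and 0.011 in the replicate pairs). The dim Ube2n probe set, 1435384_at, had 56.0 and 31.0 in pseudopodia against 39.0 and 36.2 in cell bodies (0.12 ± 0.37, adjusted p = 0.890).

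Ube2v1 stood somewhat higher in pseudopodia on both of its probe sets, without passing. Probe set 1415755_a_at had 4637.5 and 5311.6 in pseudopodia against 3551.7 and 3921.0 in cell bodies, with no overlap (0.41 ± 0.17, adjusted p = 0.203, and 0.0518 with the block). The other Ube2v1 probe set has a suffix that marks probes shared between genes or transcripts. Probe set 1444523_s_at had 5097.3 and 8285.6 in pseudopodia against 3975.9 and 5406.3 in cell bodies, and pseudopodia replicate 1 lay below cell body replicate 2 (0.49 ± 0.26, adjusted p = 0.321, and 0.0200 with the block). Ube2v2 was dim. Its probe set 1417983_a_at had 67.6 and 53.2 in pseudopodia against 55.2 and 72.9 in cell bodies (-0.065 ± 0.31, adjusted p = 0.930), and 1417984_at had 75.2 and 31.2 in pseudopodia against 39.6 and 35.7 in cell bodies (0.29 ± 0.41, adjusted p = 0.730). On both, the replicate 1 pair was positive and the replicate 2 pair negative.

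Ube2j1 and Ube2j2 are anchored in the membrane of the endoplasmic reticulum (ER) and Ube2g2 is recruited to it, and all serve the degradation of misfolded ER proteins. Ube2j1 had 1276.9 and 1345.2 in pseudopodia against 887.1 and 1059.0 in cell bodies on its brighter probe set, 1448824_at (0.43 ± 0.20, adjusted p = 0.255). The other, 1417723_at, had 1001.9 and 799.5 in pseudopodia against 692.8 and 674.3 in cell bodies (0.38 ± 0.21, adjusted p = 0.337). On both, each pseudopodia array was above each cell body array, and neither passed.

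Ube2j2 split between its probe sets. The bright one, 1426138_a_at, had 1139.2 and 1361.4 in pseudopodia against 1058.8 and 1395.8 in cell bodies, and the groups overlapped (0.034 ± 0.22, adjusted p = 0.950). The dim one, 1430317_at, had 19.6 and 39.4 in pseudopodia against 123.0 and 89.2 in cell bodies, with no overlap (-1.45 ± 0.36, adjusted p = 0.0649, and 0.0100 with the block). The gap between them was 1.48 ± 0.43 (adjusted p = 0.244). Scaling on the hybridization controls also called Ube2j2 1430317_at lower, at -1.71 (adjusted p = 0.0297). That scaling moved the median of all kept probe sets from -0.03 to -0.32. It called 1510 of them lower, beside 747 in the main fit. Most of the mean signal of Ube2j2 1430317_at came from its cell body arrays.

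Ube2g2 stood lower in pseudopodia on both probe sets without passing. Probe set 1417032_at had 853.6 and 996.3 in pseudopodia against 992.2 and 1093.4 in cell bodies (-0.17 ± 0.20, adjusted p = 0.666). The dim 1417033_at had 86.1 and 34.7 in pseudopodia against 125.8 and 115.3 in cell bodies (-0.92 ± 0.37, adjusted p = 0.204), and its pseudopodia replicate 2 was the lowest of the 4. Ube2g1, a paralogue that extends chains linked through lysine 48 on targets of cullin ligases, had 1605.3 and 1124.4 in pseudopodia against 1420.0 and 1159.8 in cell bodies on 1415688_at (0.065 ± 0.24, adjusted p = 0.904). Its probe set 1455094_s_at had 308.5 and 140.4 in pseudopodia against 287.7 and 266.4 in cell bodies (-0.38 ± 0.35, adjusted p = 0.578), where pseudopodia replicate 2 lay apart from the other 3 arrays.

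Ube2r2, a paralogue of Cdc34 that extends chains on targets of SCF ligases, stood higher in pseudopodia without passing. Probe set 1415768_a_at had 878.2 and 1151.2 in pseudopodia against 646.1 and 527.2 in cell bodies, with no overlap (0.77 ± 0.23, adjusted p = 0.104, and 0.0131 with the block). Its replicate pairs gave 0.43 and 1.10. Probe set 1444460_at had 154.5 and 134.1 in pseudopodia against 110.6 and 102.0 in cell bodies (0.39 ± 0.25, adjusted p = 0.408).

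Ube2k, which builds chains linked through lysine 48, did not pass on its brightest probe set, 1417186_at, with 2463.4 and 2572.6 in pseudopodia against 2056.6 and 2549.4 in cell bodies (0.14 ± 0.19, adjusted p = 0.721). Its dim kept probe sets overlapped as well. Ube2k 1417188_s_at had 43.5 and 50.7 in pseudopodia against 44.1 and 31.6 in cell bodies (0.24 ± 0.35, adjusted p = 0.740). Ube2k 1443148_at had 30.7 and 87.9 in pseudopodia against 45.2 and 88.4 in cell bodies (-0.20 ± 0.46, adjusted p = 0.846).

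Ube2c and Ube2s serve the anaphase-promoting complex in mitosis, the first starting and the second extending ubiquitin chains, and Ube2t serves the Fanconi anaemia pathway of DNA repair. Ube2c had 1002.3 and 949.3 in pseudopodia against 1015.7 and 1119.2 in cell bodies, with the lower 2 values in pseudopodia (-0.13 ± 0.19, adjusted p = 0.750). Ube2s had 1234.4 and 1476.1 in pseudopodia against 1158.8 and 1368.8 in cell bodies (0.10 ± 0.20, adjusted p = 0.822). Ube2t was dim, with 55.1 and 91.1 in pseudopodia against 74.3 and 71.5 in cell bodies (-0.027 ± 0.32, adjusted p = 0.973). These 3 differences lay between -0.13 and 0.10, smaller than their SE.

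Of the E2 enzymes for ubiquitin-like proteins, Ube2f, which transfers NEDD8, had 6 kept probe sets and 0 calls (limma; 2 with an unadjusted p under 0.05). The 4 brighter probe sets of Ube2f stood on the pseudopodia side with no overlap. Ube2f 1450275_x_at, the brightest, had 1013.4 and 983.4 in pseudopodia against 697.7 and 805.2 in cell bodies (0.41 ± 0.20, adjusted p = 0.283). Ube2f 1451272_a_at had 931.7 and 1129.3 in pseudopodia against 633.9 and 784.6 in cell bodies (0.53 ± 0.22, adjusted p = 0.210). Ube2f 1429568_x_at and 1432426_a_at were alike, at 0.45 ± 0.21 and 0.35 ± 0.22, with signals of 843.8 and 856.1 in pseudopodia against 552.4 and 689.8 in cell bodies for the first and 349.2 and 309.6 in pseudopodia against 250.2 and 260.4 in cell bodies for the second. Probe sets ending in _x_at may cross-hybridize, and probe sets of 1 gene on the same arrays are not separate samples.

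The 2 dim probe sets of Ube2f did not pass either. Ube2f 1455569_at had 12.8 and 57.7 in pseudopodia against 84.7 and 81.1 in cell bodies, with both pseudopodia arrays below both cell body arrays (-1.10 ± 0.47, adjusted p = 0.222). The gap from the brightest probe set was 1.51 ± 0.52 (adjusted p = 0.316), and it was 2.33 in the replicate 1 pair and 0.68 in the replicate 2 pair. Ube2f 1436254_at had 22.2 and 77.4 in pseudopodia against 33.8 and 23.7 in cell bodies, where pseudopodia replicate 2 alone was high (0.43 ± 0.49, adjusted p = 0.664), and its gap to the brightest was -0.02 ± 0.53. Ube2z, which takes ubiquitin from the E1 enzyme Uba6, had 1888.3 and 1512.1 in pseudopodia against 1944.8 and 2238.3 in cell bodies on 1423949_at (-0.30 ± 0.20, adjusted p = 0.420). Its second kept probe set, 1436635_at, had 163.6 and 149.3 in pseudopodia against 199.7 and 175.8 in cell bodies (-0.24 ± 0.24, adjusted p = 0.605). Ube2l6, the enzyme for ISG15, was dim, with 53.8 and 48.5 in pseudopodia against 63.4 and 46.7 in cell bodies (-0.073 ± 0.32, adjusted p = 0.923).

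Ube2h, the E2 of the CTLH ligase complex, had 4 kept probe sets of which 3 were negative. The only positive one was the brightest, 1438971_x_at, which may cross-hybridize by its suffix. It had 1517.9 and 1513.6 in pseudopodia against 1631.8 and 1212.6 in cell bodies (0.11 ± 0.21, adjusted p = 0.813). Ube2h 1418632_at had 197.9 and 61.4 in pseudopodia against 301.3 and 225.0 in cell bodies, with no overlap and the lowest value on pseudopodia replicate 2 (-1.10 ± 0.45, adjusted p = 0.209, and 0.00915 with the block). The gap between these Ube2h probe sets was 1.21 ± 0.52 (adjusted p = 0.431), with 0.47 in the replicate 1 pair and 1.95 in the replicate 2 pair. Ube2h 1418631_at had 1075.1 and 1117.0 in pseudopodia against 1128.4 and 1314.9 in cell bodies (-0.15 ± 0.19, adjusted p = 0.701), and 1428791_at had 809.2 and 515.6 in pseudopodia against 653.7 and 850.9 in cell bodies (-0.20 ± 0.27, adjusted p = 0.717).

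Ube2w, which attaches ubiquitin to the N-terminus of proteins, had 2 kept probe sets of opposite sign. Ube2w 1426398_at had 281.9 and 179.7 in pseudopodia against 239.6 and 256.8 in cell bodies (-0.13 ± 0.27, adjusted p = 0.827), and 1452054_at had 117.9 and 109.3 in pseudopodia against 97.4 and 55.2 in cell bodies (0.53 ± 0.31, adjusted p = 0.372). Ube2o, a large enzyme that joins E2 and E3 activity, stood at -0.40 ± 0.26 (adjusted p = 0.409), with 561.0 and 383.0 in pseudopodia against 689.1 and 552.4 in cell bodies. Ube2q1 stood at -0.011 and -0.065, Ube2q2 at -0.18, and Ube2cbp, whose product binds Ube2c, at 0.34, with adjusted p between 0.564 and 0.982.

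Compared within genes, 20 member genes had at least 2 kept probe sets. In 12 of them the probe sets differed in sign, in 5 all were positive (Ube2a, Ube2j1, Ube2n, Ube2r2 and Ube2v1) and in 3 all were negative (Ube2g2, Ube2q1 and Ube2z). With hybridization control scaling 3 genes were all positive (Ube2j1, Ube2r2 and Ube2v1), 10 all negative and 7 of differing sign, and with quantile normalization the counts were 8, 2 and 10. Of 36 pairs of a brightest and another probe set, 38.9% were of opposite sign, beside 37.1% of the 8390 pairs of all genes. The gap was at least 1 log2 unit in 6 pairs, or 16.7%, beside 11.3% over all genes. In each of these 6, from Ube2b (2 pairs), Ube2f, Ube2j2, Ube2h and Ube2e1, the dimmer probe set was the lower one in pseudopodia, as it was in 73.7% of the 944 such pairs of all genes. Brightness and difference come from the same values and are not independent. Ube2b 1430177_at passed the filter through its cell body signals, which also gave most of the mean signal of Ube2j2 1430317_at and Ube2f 1455569_at. Over pairs of any size the brightest stood above the other in 66.7% of Ube2 pairs and 58.8% of all, with median gaps of 0.11 and 0.12. None of the 36 pairs passed (limma; 5 with an unadjusted p under 0.05, or 13.9% beside 11.8% of all pairs).

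**Figure D3:**
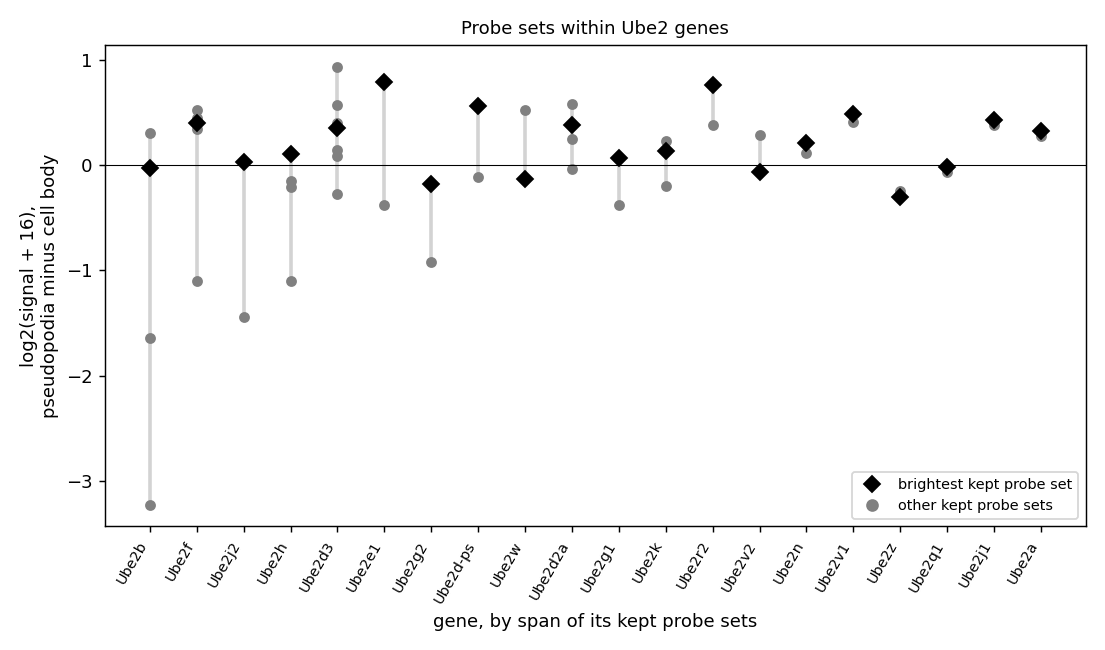
Difference of each kept probe set, as log2(signal + 16) in pseudopodia minus cell bodies, for the 20 Ube2 genes with at least 2, ordered by span. Diamonds mark the brightest probe set of a gene and circles the others, and the brightest probe sets lie between -0.30 and 0.79 while the lowest of the others is Ube2b 1430177_at at -3.23.

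The share of positive members differed by signal and by type of probe set, which was described and not tested. Among the 7506 brightest kept probe sets 26 of 37 members were positive (70.3%, beside 54.2% of all), and among the 7507 dimmest 5 of 16 (31.3%, beside 46.4%). Members on probe sets not specific to 1 transcript, by their suffix, were positive in 17 of 19 cases with a median of 0.39, beside 56.5% and a median of 0.08 over all such probe sets. Members on probe sets for 1 transcript were positive in 21 of 47 cases with a median of -0.03, near the 44.4% and the median of -0.07 of all such probe sets. Brightness, type and gene are not independent of each other here, since several probe sets come from 1 gene.

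**Figure D4:**
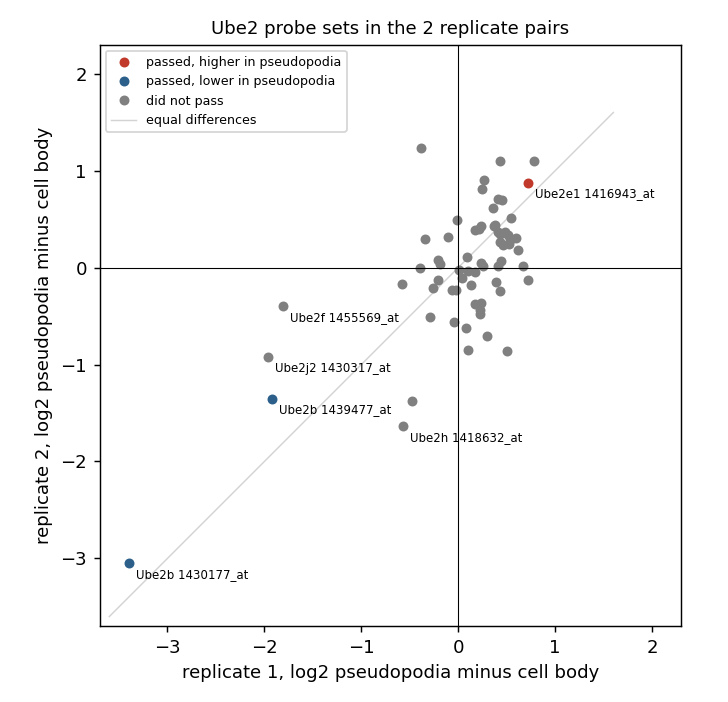
Difference of each kept Ube2 probe set (log2 pseudopodia minus cell body) in the replicate 1 pair, on the horizontal axis, and in the replicate 2 pair, on the vertical axis. The Ube2b probe sets that passed lie at -3.40 and -3.05 and at -1.92 and -1.35, near the line of equal differences, while Ube2j2 1430317_at, Ube2f 1455569_at and Ube2h 1418632_at lie farther from it.

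The 15 members not kept came from 11 genes, with signals between 1.0 and 53.7, and were not tested. Among them were the only probe sets of Ube2d2b, Ube2u and Ube2ql1. Ube2d2b had 23.9 and 33.6 in pseudopodia against 5.6 and 9.0 in cell bodies. The only probe set of Ube2u had 2.6 and 24.1 in pseudopodia against 2.4 and 2.9 in cell bodies, and the brighter of the 2 of Ube2ql1 had 24.5 and 22.8 in pseudopodia against 1.1 and 4.4 in cell bodies. No order is read from values this dim. Another 4 probe sets name Ube2l3 together with further symbols and are not members by the rule. Ube2m, another enzyme for NEDD8, was not analysed here.

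Other genes of the ubiquitin system were counted by list, each gene by its brightest kept probe set with p adjusted over genes. In the 7 lists 0 genes passed as higher in limma, and 2 passed as lower (between 1 and 5 genes of each list had an unadjusted p under 0.05), where 0.876% and 1.64% of all genes passed. One was Rbx1, the RING subunit of cullin ligases, at -2.01 ± 0.37 (adjusted p = 0.0434) on a dim probe set with 7.0 and 7.9 in pseudopodia against 86.0 and 71.7 in cell bodies. Its cell body signals carried this probe set past the filter. The other was Syvn1, the ER ligase also called Hrd1, at -1.21 ± 0.21 (adjusted p = 0.0413), with 882.3 and 859.0 in pseudopodia against 2343.1 and 1762.3 in cell bodies. Both calls ended without the filter, without the variance trend and without either cell body array. The list of ER-associated ligases and their partners had a median of -0.43, with 2 of 12 genes positive, beside a median of 0.01 over all genes. With the block 5 of the 12 passed as lower, where 9.63% of all genes did so. By probe set and without the block, 5 of 25 passed as lower, where 3.32% of all kept probe sets did so. These were 2 of Syvn1, 2 of Sel1l and 1 of Derl1, and probe sets of 1 gene on the same arrays are not separate samples. Ube2j1, Ube2j2 and Ube2g2, the E2 enzymes of the same pathway, stood by their brightest probe sets at 0.43, 0.034 and -0.17. Their other probe sets stood at 0.38, -1.45 and -0.92 in the same order, so the values depend on the probe set taken.

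The 6 measured E1 enzymes had a median of 0.23, with 4 positive. The 5 measured ubiquitin-like modifiers were all positive, with a median of 0.33. The 8 E2 enzymes and variants outside the Ube2 names had a median of 0.19, the 15 members of the cullin ligase core 0.11, the 16 of the anaphase-promoting complex 0.07 and the 22 HECT and RBR ligases -0.05. Apart from Rbx1, 0 genes of these lists passed without the block. With the block 1 E1 enzyme (Uba3), 2 genes of the cullin core (Elob and Eloc), 2 HECT and RBR ligases (Huwe1 and Arih2) and 3 of the anaphase-promoting complex (Anapc5, Anapc11 and Anapc13) passed as higher, where 7.62% of all genes did so. By probe set and without the block, 1 probe set of Eloc passed as higher, where 1.08% of all kept probe sets did so, and 2 of Wwp2, a HECT ligase, passed as lower beside that of Rbx1. Genes in these 2 sentences are named for having passed, after their values were seen.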

How the data were processed

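Biotin-labelled RNA of pseudopodia and of cell bodies was hybridised to 4 arrays, 2 per group; group and replicate number come from the sample titles. The labels' protocols give fixation in 0.3% formaldehyde (10 min) and its reversal by heat (70 °C, 45 min), which could affect RNA integrity. The values are the authors' deposited intensities on a linear scale, MAS5 signals per the submitters' processing notes; the version, detection calls and scaling target are not given in the sources used here. The mean after trimming 2% of values at both ends was 250.0 on all 4 arrays. Since MAS5 takes mismatch signal away, values of dim probe sets scatter more. Per the file headers, chip lot and scanner did not differ, and arrays of the same replicate number were scanned on the same day, with 2 scan days in all.

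Gene symbols came from the platform annotation, which can be old; all 33 member symbols matched the RefSeq gene table. No genome was used, so the place of a probe set in its transcript was not analysed here, and no probe or protein sequence was used here. Signals were transformed as log2(signal + 16), which understates differences of dim probe sets, and 22519 of the 45037 probe sets other than controls were kept, those whose mean reached the median. The test was limma 3.58.1 under R 4.3.3 (two-sided, lmFit and eBayes, a variance trend, no block, Benjamini-Hochberg adjustment). Genes were taken by their brightest kept probe set and adjusted over 10962 genes. Within-gene gaps were the brightest minus each other kept probe set of a gene, fitted the same way. The alternatives were pseudocounts of 1 and 64, no filter and a filter at the 75th percentile, median centring, quantile normalization, scaling on the hybridization controls, no variance trend, a replicate block, each array left out and, for members and gaps, probe sets for 1 transcript only.

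The replicate numbers pair the arrays, since same-numbered arrays shared a scan day and an experiment code in the design text. Over kept probe sets, replicate 1 minus replicate 2 in pseudopodia and the same in cell bodies had r = 0.243. The procedure was tested on simulated data of this comparison with 200 of 22519 probe sets changed in each of 10 runs. The changed ones were drawn from the 8390 that are not the brightest of their gene. Noise was drawn separately for each array, with no effect shared by a replicate number. In the data, 22.0% of kept probe sets had an unadjusted limma p under 0.05, so the rates hold for the simulated setting only. There the procedure found 3.17% of changes of 1 log2 unit, 49.8% of 2 and 77.8% of 3, and 6.64% of calls were false. For the 8390 gaps it found 0.577%, 24.7% and 81.6%.

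Members, gene lists and the rule for named probe sets were chosen with earlier results of these data known. By that rule, full values are given for members that passed, the 5 highest and the 5 lowest, genes whose probe sets differ in sign and a set of E2 enzymes named by role. The 4 Ube2l3 probe sets with several symbols were left out.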

Additional observations from a re-analysis of the deposited data

How the results depend on the processing

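With 2 arrays per fraction the counts of calls moved with the settings, while no named difference changed sign where it had passed. The probe sets called higher over the whole array, 243 as reported, numbered 39 without the filter, 54 with hybridization control scaling, 0 without the variance trend, 1541 with the replicate block and 629 by the rule of size, which was chosen after seeing the data. Those called lower, 747 as reported, numbered 137, 1510, 0, 2546 and 1769 under the same settings. Leaving out 1 array gave 0 to 1304 higher and 0 to 2652 lower; it leaves a lone array whose fraction is assumed to vary like the other. Of the members called, the 1 higher became 0 with a pseudocount of 1, no filter, the 75th percentile filter, median centring, quantile normalization, hybridization control scaling or no variance trend, 5 with the replicate block and 0 to 5 without 1 array. The 2 lower became 1 with a pseudocount of 1, no filter, the 75th percentile filter, median centring or quantile normalization, 0 without the variance trend, 4 with the replicate block and 0 to 6 without 1 array. At the 75th percentile filter Ube2b 1430177_at was not among the probe sets tested. The members' median, 0.11, was -0.21 with hybridization control scaling, where the median of all kept probe sets was -0.32.

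The pairs within genes called, 0 as reported, numbered 58 with a pseudocount of 64, 2 with hybridization control scaling, 12 without the variance trend and 9 with probe sets for 1 transcript only; within Ube2 genes 1 was called with the pseudocount of 64, without the variance trend and with 1 transcript only, and 0 with the replicate block. Genes of the related lists called higher, 0 as reported, were 8 with the replicate block and 0 to 7 without 1 array. Those called lower, 2 as reported, were 1 with a pseudocount of 1, the 75th percentile filter or median centring, 0 without the filter or the variance trend, 6 with the replicate block and 0 to 7 without 1 array. The cause of these shifts was not tested. The number of arrays and the dim signals of 1430177_at, 1430317_at and 1455569_at limit the precision, and where these probe sets lie in their genes was not analysed here.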
